A study of Homo sapiens with 4 samples.

Results

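NF-κB is a family of dimeric transcription factors, and the 10 genes described here encode 4 of its subunits together with inhibitors and feedback targets of the pathway. The genes were chosen by symbol, and all 10 were found among the 13165 genes of the table. The subunits are NFKB1, NFKB2, RELA and RELB. The inhibitors are NFKBIA, NFKBIE and TNFAIP3, and the feedback targets are BIRC3, TRAF1 and ICAM1. The measurements come from TPC1, a long-established line of human papillary thyroid cancer cells. INAVA, also named C1orf106, is an activator of innate immunity, and RNA was sequenced from TPC1 cells carrying a vector for C1orf106 (TPC1-C1orf106) and from cells carrying the vector control (TPC1-Vector). Per the labels, both were stable lines selected in 0.5 μg/mL puromycin for 2 weeks, and the sources used here do not say whether a line was 1 clone or a pool. Each group had 2 libraries.

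In resting cells NF-κB dimers are held in the cytoplasm by inhibitors of the IκB family. Receptors of the TNF, IL-1 and Toll-like families act through adaptors on the IκB kinase complex, which marks IκB for degradation and releases the dimers to the nucleus. Many genes that NF-κB then induces are brakes of the same pathway, so their transcripts serve as a readout of its output. In thyroid cancer cells NF-κB is known for its part in survival and inflammatory gene expression.

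The deposited table holds 1 value per gene and group, in FPKM, the number of sequenced fragments scaled to transcript length and to library size. Each value printed below is the authors' value for the group, since the libraries had been combined. There is thus no SD, no replicate check and no test of any difference here, and the depth per library is unknown. Differences are given on the scale of log2(FPKM + 0.5), on which the changes of weak genes come out too small. A gene is called higher or lower when it differed at least 1.5-fold on that scale. Genes averaging 0.5 FPKM or more across the groups numbered 12305, and of these 2.24% were called higher and 1.45% lower in TPC1-C1orf106. The median log2 fold change of these genes was 0.0033. The table's column for the overexpressing cells is headed T106, and the FPKM of C1orf106 itself was 7.96 in TPC1-Vector cells against 123 in TPC1-C1orf106 cells, a log2 fold change of 3.86. Of the thyroid markers, PAX8 was at 60.1 and 55.7 FPKM and FOXE1 at 5.26 and 5.89 FPKM, and markers of thyroid hormone synthesis were not analysed here. Of 6 epithelial markers, KRT19, EPCAM and CDH1 had no value. KRT8 was lower in TPC1-C1orf106 (23.4 and 10.5 FPKM, a log2 fold change of -1.12). KRT18 was higher (140 and 212 FPKM, 0.59) and KRT7 was at 1.97 and 2.01 FPKM, so the lines also differed in keratin transcripts. Of 6 leukocyte markers CD68 (5.76 and 8.67 FPKM) and LYZ (0.891 and 0.940 FPKM) had values, and the part of these marker differences in the results below was not tested. In RNA from whole cultures, fewer cells with a transcript and less of it per cell cannot be told apart.

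Promoter sequences are shown first, because binding sites for NF-κB dimers in promoters of the feedback genes are what closes the feedback loop. RefSeq promoter windows (GRCh38.p14, 250 bases before to 50 after a start site) existed for 8 of the 10 genes, 14 windows in all, and RELB and NFKBIE had no entry. The windows were searched on both strands for the κB consensus, the degenerate motif of 10 bases. It was found in 5 of the 8 genes, against 5.91% of the 35116 windows of all genes and 7.09% of their 27305 gene symbols. Capitals mark the match in each sequence. The lines give the genomic interval and strand of the printed bases and the distance of the first base of the match from the start site.

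NFKB1 (chr4:102501300-102501329, forward strand, match starting 49 bases upstream): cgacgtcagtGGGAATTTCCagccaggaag
NFKB2 (chr10:102394461-102394490, forward strand, match starting 107 bases upstream): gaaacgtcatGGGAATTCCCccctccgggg
NFKB2 (chr10:102394490-102394519, forward strand, match starting 78 bases upstream): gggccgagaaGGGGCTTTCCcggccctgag
NFKB2 (chr10:102395674-102395703, forward strand, match starting 21 bases upstream): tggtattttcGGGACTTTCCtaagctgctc
TNFAIP3 (chr6:137867182-137867211, forward strand, match starting 67 bases upstream): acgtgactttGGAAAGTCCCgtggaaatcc
TNFAIP3 (chr6:137867194-137867223, forward strand, match starting 55 bases upstream): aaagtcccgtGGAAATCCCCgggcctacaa
BIRC3 (chr11:102317275-102317304, forward strand, match starting 199 bases upstream): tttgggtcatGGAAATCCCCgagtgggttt
BIRC3 (chr11:102317339-102317368, forward strand, match starting 135 bases upstream): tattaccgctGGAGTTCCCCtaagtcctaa

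The NFKB2 matches belong to different annotated starts, with those at 107 and 78 bases upstream of the second start and the one at 21 bases upstream of the third. A further match overlapped the first of them by all but 1 base, and another lay 176 bases upstream of the third start. For NFKBIA, the gene of IκBα, and TRAF1, the gene with the largest fold among the 10, the 250 bases upstream of the first listed start are shown whole.

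NFKBIA (chr14:35404750-35404999, reverse strand): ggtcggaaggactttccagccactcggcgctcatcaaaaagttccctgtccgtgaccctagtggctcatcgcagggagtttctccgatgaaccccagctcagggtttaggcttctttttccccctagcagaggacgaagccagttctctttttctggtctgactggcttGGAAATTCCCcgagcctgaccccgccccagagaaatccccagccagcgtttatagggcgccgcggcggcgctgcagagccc
TRAF1 (chr9:120929172-120929421, reverse strand): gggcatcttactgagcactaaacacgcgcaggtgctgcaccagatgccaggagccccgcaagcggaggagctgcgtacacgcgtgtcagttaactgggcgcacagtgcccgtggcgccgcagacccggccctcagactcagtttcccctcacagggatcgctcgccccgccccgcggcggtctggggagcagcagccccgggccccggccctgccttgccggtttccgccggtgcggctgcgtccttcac

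The NFKBIA stretch holds 1 match, 81 bases upstream of the start, in a sequence of 59.2% G and C. The TRAF1 stretch, with 70.0% G and C, holds none, and neither do the other TRAF1 windows nor those of RELA and ICAM1. A match is a description of letters and not a site shown to be bound, and the lack of one says only that these letters are not in the windows.

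The levels of the 10 genes spanned a wide range in both groups, and the order from subunits to feedback targets was largely shared. In TPC1-Vector the order was RELA, NFKB1, NFKB2, NFKBIA, RELB, BIRC3, NFKBIE, ICAM1, TNFAIP3 and TRAF1. The order in TPC1-C1orf106 differed by 3 exchanges of neighbours, in which NFKBIA passed NFKB2, NFKBIE passed BIRC3, and TRAF1 passed TNFAIP3. No spread is known for any of these levels, so whether neighbours in the order differ beyond it cannot be said. RELA had a higher mean level than 73.1% of the genes tested, and TRAF1 than 7.31% of them.

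**Figure D1:**
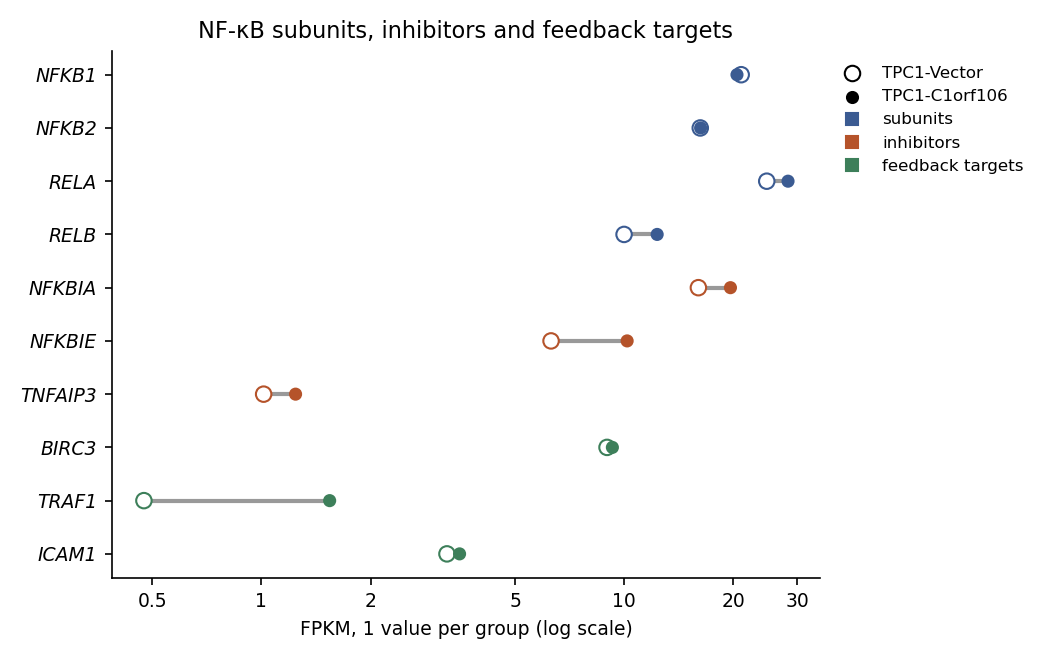
FPKM of the 10 genes on a log axis, with open circles for TPC1-Vector and filled circles for TPC1-C1orf106, each the 1 value of its group and without error bars. The pairs lie furthest apart for TRAF1 (0.474 and 1.54 FPKM) and NFKBIE (6.29 and 10.2 FPKM), and those of NFKB2 (16.2 in both) overlap.

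Across the 10 genes, 2 were called higher in TPC1-C1orf106, TRAF1 and NFKBIE, and 0 were called lower, beside the 2.24% and 1.45% of all genes given above. The log2 fold change was above 0 for 9 of them, against 50.8% of all genes tested, and their median was 0.20. The sign of NFKB2 turned below 0 with median-of-ratios scaling and with quantile normalization, which left 8 genes above 0. By role, the median log2 fold change was 0.097 for the subunits, 0.29 for the inhibitors and 0.10 for the feedback targets. Summed over the genes of a role, the subunits were at 71.9 and 77.3 FPKM, the inhibitors at 23.3 and 31.1 FPKM, and the feedback targets at 12.7 and 14.3 FPKM in TPC1-Vector and TPC1-C1orf106. The ratios of these sums were 1.07, 1.33 and 1.13. All 10 genes averaged 0.5 FPKM or more, but the value of TRAF1 in TPC1-Vector was under it. The 10 were chosen with earlier results of these data known, so their counts are not an independent comparison with all genes.

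**Figure D2:**
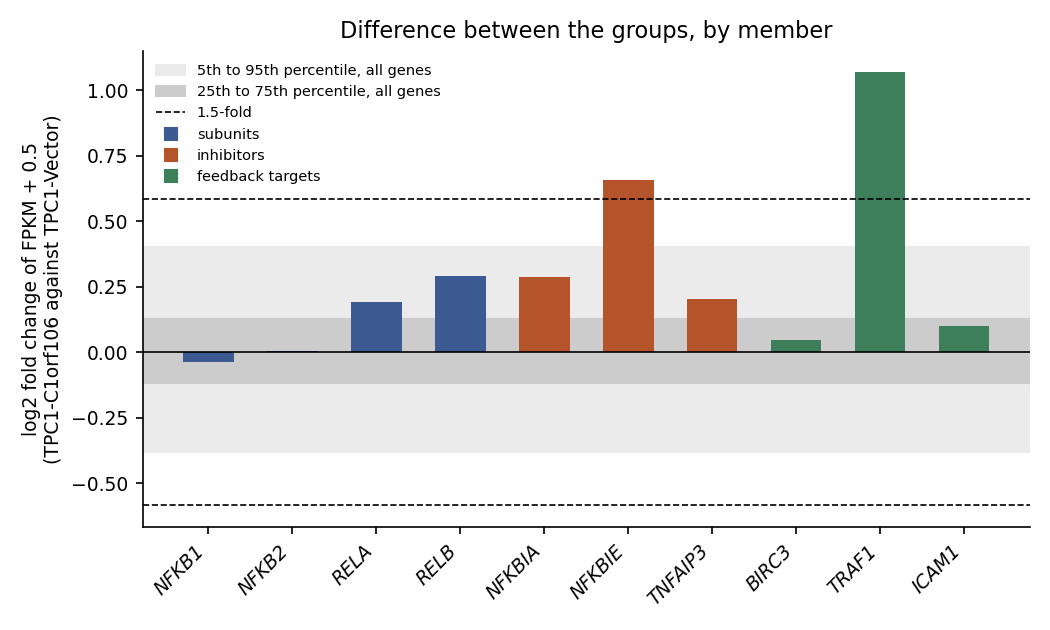
Log2 fold change of FPKM + 0.5, TPC1-C1orf106 against TPC1-Vector, for each of the 10 genes by role, over grey bands for the middle 50% and 90% of all 12305 genes tested and dashed lines at 1.5-fold. TRAF1 (1.07) and NFKBIE (0.66) stand above the line, and NFKB1 (-0.038) is the only bar below 0, though NFKB2 also falls below it with median-of-ratios scaling and with quantile normalization.

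RELA, on the reverse strand at chr11:65653596-65662972 (hg38, as are the table's other intervals), encodes p65, the transactivating subunit of the classical dimer. Its FPKM was 24.7 in TPC1-Vector cells against 28.3 in TPC1-C1orf106 cells, the highest level of the 10 genes in each group. Its log2 fold change was 0.19, and 16.6% of all genes tested had a higher one. NFKB1 (chr4:102501329-102617302, forward strand), which encodes p105 and its product p50, the usual partner of p65, was at 21.0 and 20.5 FPKM, a log2 fold change of -0.038. The level of NFKB1 relative to RELA was 0.850 in TPC1-Vector and 0.723 in TPC1-C1orf106.

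RELB and NFKB2 encode the dimer of the alternative pathway, in which p100 is processed to p52. RELB (chr19:45001449-45038198, forward strand) was at 9.99 and 12.3 FPKM, a log2 fold change of 0.29, and 9.05% of all genes had a higher one. NFKB2 was at 16.2 FPKM in both groups, a log2 fold change of 0.0032. The level of RELB relative to NFKB2 was thus 0.617 in TPC1-Vector and 0.759 in TPC1-C1orf106. None of the 4 subunits was called, and their shares of the summed subunit FPKM stayed close, the largest move being that of NFKB1, from 29.2% to 26.5%. REL, the remaining subunit of the family, was at 2.15 FPKM in TPC1-C1orf106 cells, a log2 fold change of 0.026.

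NFKBIA (chr14:35401510-35404754, reverse strand) encodes IκBα, the inhibitor that NF-κB itself induces and that ends the signal. TPC1-Vector cells had 16.0 FPKM of it and TPC1-C1orf106 cells 19.6 FPKM. The log2 fold change was 0.29, below the 1.5-fold used, and 9.25% of all genes had a higher one. NFKBIE (chr6:44258166-44265788, reverse strand) encodes IκBε, which restrains dimers in the same way and is also induced by them. It was at 6.29 and 10.2 FPKM, a log2 fold change of 0.66, and was called higher. Only 1.71% of all genes had a higher log2 fold change, and of the 6849 genes with a mean from 5 to 50 FPKM, where NFKBIE lies, 1.30% were called higher.

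The level of NFKBIE relative to NFKBIA was 0.393 in TPC1-Vector and 0.519 in TPC1-C1orf106. Relative to RELA, NFKBIA was at 0.648 and 0.694, and NFKBIE at 0.254 and 0.360. The summed FPKM of NFKBIA and NFKBIE, 22.3 and 29.8 FPKM, was 0.310 of the summed subunit FPKM in TPC1-Vector and 0.386 in TPC1-C1orf106. This sum leaves out other IκB genes such as NFKBIB, which was at 17.6 and 19.0 FPKM, a log2 fold change of 0.11. The values of NFKBIA and NFKBIE and their ratios to the subunits thus lay above those of TPC1-Vector, but only NFKBIE was past 1.5-fold. No spread is known for these ratios.

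TNFAIP3 (chr6:137823670-137883314, forward strand) encodes A20, a ubiquitin-editing enzyme that shuts down signalling upstream of the IκB kinase complex. It was at 1.01 and 1.24 FPKM, a log2 fold change of 0.20 with 0.5 added and 0.29 with nothing added. Its interval in the table begins 43518 bases before the GENCODE release 29 gene (chromosome 6, 137867188 to 137883312, GRCh38), so its value may include upstream transcripts. The intervals of the other 9 genes matched theirs within 30 bases at the start and 150 at the end. None of the 10 overlapped another entry of the table.

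BIRC3 (chr11:102317450-102339403, forward strand) encodes cIAP2, a ubiquitin ligase of TNF receptor complexes and an anti-apoptotic NF-κB target. It was close in both groups, at 8.97 and 9.28 FPKM, a log2 fold change of 0.046, with 40.3% of all genes higher. BIRC2, its neighbour on chromosome 11 and the gene of the related cIAP1, was at 24.8 and 34.1 FPKM, a log2 fold change of 0.45. ICAM1 (chr19:10270841-10286615, forward strand), which encodes a leukocyte adhesion receptor, was at 3.25 and 3.52 FPKM, a log2 fold change of 0.10.

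TRAF1 encodes an adaptor that binds TRAF2 and cIAP proteins in TNF receptor complexes. It lies on the reverse strand of chromosome 9 (120902393 to 120929173, GRCh38). Its FPKM was 0.474 in TPC1-Vector cells against 1.54 in TPC1-C1orf106 cells, a ratio of 3.25. The log2 fold change was 1.07 with 0.5 added, 0.79 with 1 added and 1.70 with nothing added, and was past 1.5-fold in each case. With 0.5 added, only 0.520% of all genes had a higher one, and TRAF1 ranked 65 of 12305.

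TRAF1 was among the weakest genes tested. Taking its longest basic coding transcript in GENCODE release 29, of 6324 nucleotides, its FPKM values correspond to 3 and 9.75 FPM, the same measure scaled to library size but not to length. Among the 2838 genes with a mean from 1 to 5 FPKM, 3.95% were called higher, and among the 883 genes with a mean from 0.5 to 1 FPKM 6.002% were. TRAF1 lies at the border of these ranges, with a mean of 1.01 FPKM, and calls were more frequent in both than at the level of NFKBIE. Its partner TRAF2 was at 35.5 and 35.1 FPKM. The level of TRAF1 relative to TRAF2 was 0.0134 in TPC1-Vector and 0.0440 in TPC1-C1orf106, and relative to BIRC3 it was 0.0529 and 0.166. TRAF2 thus remained far more abundant per length than TRAF1 in both groups.

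The 5 genes with a κB match in a window (NFKB1, NFKB2, NFKBIA, TNFAIP3 and BIRC3) had log2 fold changes from -0.038 to 0.29. The 3 with windows but no match (RELA, TRAF1 and ICAM1) had log2 fold changes from 0.10 to 1.07. The largest fold of the 10 was thus in a gene with no matched letters in its windows. NFKBIE, the other gene called higher, had no window, and any relation between matches and folds was not tested.

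Genes next to each other on a chromosome can shift together between cell lines, so each member was set beside its neighbours, the genes with a midpoint within 5 Mb and an average of 1 FPKM or more. NFKB2 lies on chromosome 10 (102394110 to 102402529), where only 1 of its 75 neighbours had a log2 fold change above 0, with a median of -0.32. The value of NFKB2 exceeded that median by 0.32, and 1 neighbour was higher than NFKB2. CHUK, the gene of the IKKα kinase, lies in the same region and was at 23.3 and 16.7 FPKM, a log2 fold change of -0.47 beside a neighbours' median of -0.31. The part of this regional difference in the value of NFKB2 was not tested.

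The other 9 members lie in regions with medians from -0.051 to 0.072. TRAF1 ranked first among itself and its 44 neighbours, whose median was -0.051, and exceeded that median by 1.12. NFKBIE exceeded the median of its 59 neighbours by 0.64 and ranked second. Relative to their neighbours, RELB was higher by 0.22, NFKBIA by 0.25, RELA by 0.14, TNFAIP3 by 0.13 and ICAM1 by 0.056. NFKB1 and BIRC3 were at -0.035 and -0.0068 relative to theirs. TRAF1 and NFKBIE were thus past 1.5-fold against their neighbours as well.

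**Figure D3:**
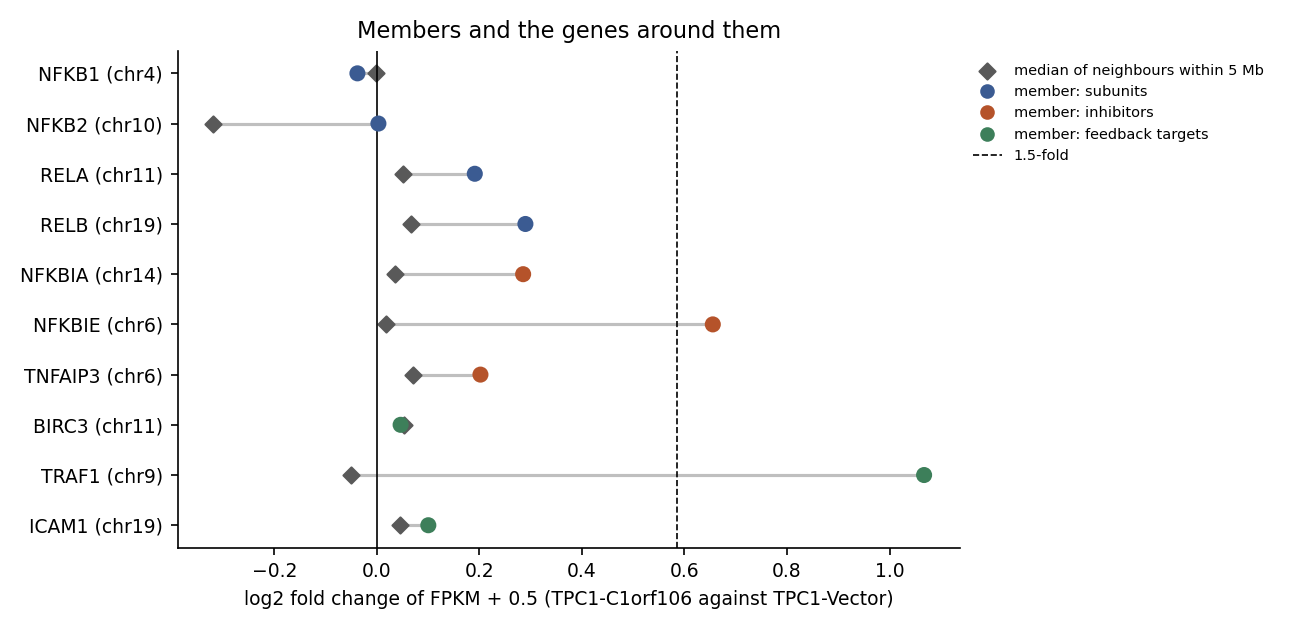
Log2 fold change of each member (circles, by role) and the median of its neighbours within 5 Mb (diamonds), TPC1-C1orf106 against TPC1-Vector, with a dashed line at 1.5-fold. The diamond of NFKB2 at -0.32 stands apart from the others, which lie between -0.051 and 0.072.

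The rest of the pathway was taken from a list of 87 genes, of which 77 had values and 76 averaged 0.5 FPKM or more. Of these, 7 were called higher (9.21%, against 2.24% of all genes) and 0 lower (against 1.45%), and their median log2 fold change was 0.045. The 7 became 4 when an average of 1 FPKM was required or when 1 was added in place of 0.5. The list was divided by role into genes of the signalling machinery, brakes among them, and genes listed as targets. Many brakes are themselves induced by NF-κB, so the signalling genes are not free of induced genes. Of the 44 signalling genes 0 were called in either direction, which is near the shares of all genes, and 25 were above 0, with a median of 0.027. Of the 32 target genes 7 were called higher (21.9%, against 2.24% of all genes), with a median of 0.13, and 21 were above 0. LTB and BCL2A1, among the 7, reached an average of 0.5 FPKM only because of the group in which they were higher. These 2 and TNFRSF9 averaged 0.5 to 1 FPKM, where 6.002% of all genes were called higher. IL6 and CSF2 averaged 1 to 5 FPKM, where 3.95% were, and IL32 and CCL2 5 to 50 FPKM, where 1.30% were. The difference between signalling and target genes was not tested. The list was also drawn up with earlier results of these data known, so its shares are not an independent comparison with all genes.

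**Figure D4:**
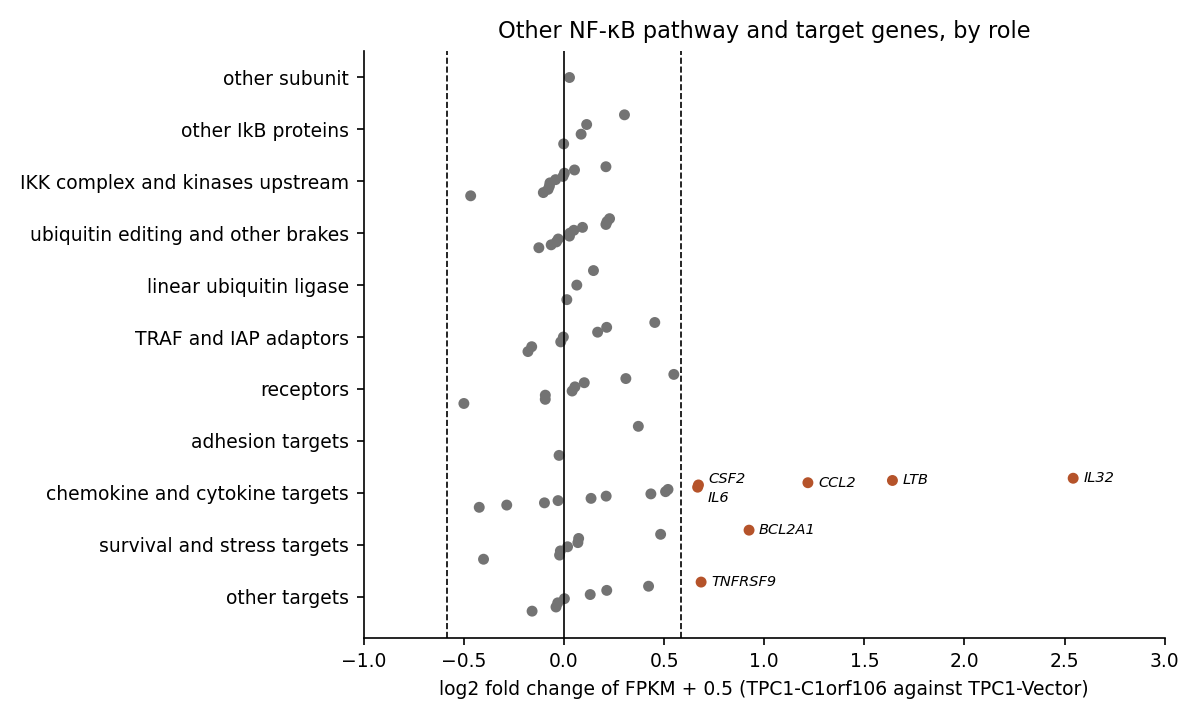
Log2 fold change of FPKM + 0.5, TPC1-C1orf106 against TPC1-Vector, of 76 further NF-κB genes by role, each point 1 gene, with dashed lines at 1.5-fold and the 7 genes called higher named. All 7 are in roles listed as targets, and the points of the signalling roles, which include brakes, lie between the lines.

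Among the signalling genes, the most abundant of the other 4 IκB proteins were NFKBIB (17.6 and 19.0 FPKM), BCL3 (13.4 and 14.3 FPKM) and NFKBIZ (7.65 and 9.55 FPKM), with log2 fold changes from 0.086 to 0.30. Of the 10 genes of the IκB kinase complex and kinases upstream, 3 were above 0, with a median of -0.056. IKBKG, the regulatory subunit NEMO, was at 31.6 and 30.04 FPKM, and TAB2, an adaptor of the TAK1 kinase, at 41.4 and 39.1 FPKM. Of the 11 genes of ubiquitin editing and other brakes, 7 were above 0, with a median of 0.029. TNIP1, which binds A20, was at 32.7 and 38.4 FPKM, a log2 fold change of 0.23. The linear ubiquitin ligase genes RNF31, RBCK1 and SHARPIN had log2 fold changes from 0.014 to 0.15. The most abundant receptor of the list, TNFRSF12A, which binds TWEAK, was at 170 and 182 FPKM.

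Of 19 chemokine and cytokine targets 14 had values, and 5 of these were called higher, against 2.24% of all genes. LTB, among the 5, passed the filter only through the group in which it was higher, and the shares by level are given above. Of the 14, 10 were above 0, with a median of 0.47. IL32, a proinflammatory cytokine, was at 3.16 and 20.8 FPKM, a log2 fold change of 2.54. CCL2, which attracts monocytes, was at 8.67 and 20.8 FPKM, a log2 fold change of 1.22. IL6 was at 2.01 and 3.48 FPKM, and CSF2, the gene of GM-CSF, at 1.58 and 2.81 FPKM, each with a log2 fold change of 0.67. LTB, the gene of lymphotoxin β, was at 0.146 and 1.51 FPKM, and the table places it on an alternate sequence of chromosome 6. The 3 most abundant genes of the role were CXCL1, a neutrophil chemokine, at 25.7 and 34.8 FPKM, CSF1, the macrophage growth factor, at 23.1 and 21.6 FPKM, and LIF, an IL-6 family cytokine, at 19.2 and 18.8 FPKM. Their log2 fold changes were 0.43, -0.097 and -0.030. The 4 genes of the role below 0 were these last ones, IL15 (-0.42) and CX3CL1 (-0.29).

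The other calls were BCL2A1 (0.373 and 1.16 FPKM), an anti-apoptotic BCL2 relative, and TNFRSF9 (0.540 and 1.17 FPKM), the receptor 4-1BB that signals through TRAF1 and TRAF2. Of the survival and stress targets 1 of 8 was called, and SOD2, the mitochondrial superoxide dismutase, was at 74.2 and 77.9 FPKM. PLAU, the gene of urokinase and the most abundant of this role, was at 288 and 218 FPKM. Its log2 fold change was -0.40, which was not called. The summed FPKM of the role, with PLAU as its largest part, was 540 in TPC1-Vector and 479 in TPC1-C1orf106. Of the 8 genes tested in the role, however, 5 were above 0, with a median log2 fold change of 0.044. LTB and BCL2A1 were under 0.5 FPKM in TPC1-Vector, like TRAF1. TNFAIP2, a TNF-induced gene, was at 43.4 and 50.4 FPKM, and IRF2, a repressor of interferon genes, at 10.2 and 9.08 FPKM. CD44, an adhesion receptor, was at 165 and 213 FPKM, a log2 fold change of 0.37.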

How the data were processed

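RNA of 2 TPC1-Vector and 2 TPC1-C1orf106 libraries was sequenced, and the authors deposited FPKM values in 1 table, with 1 value per gene and group. The submitters' processing notes name CASAVA, Cufflinks 2.1.1, Cuffdiff and hg38. The aligner and annotation are not given in the sources used here. The labels and the study's methods differ on the library kit, the sequencer and the delivery of the vector (transfection or retroviral infection). The table's 4 columns of the authors' own comparison (log2 ratio, direction, p-value and q-value) were not used. Libraries had been combined, so no test was run, and neither the number of fragments in a library nor the error of counting them is known.

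Genes averaging 0.5 FPKM or more were kept. Differences of log2(FPKM + 0.5) of at least 1.5-fold were called, and the error rate of these calls in the data was not tested. Positions were set beside GENCODE release 29, and promoter windows of 300 bases came from RefSeq (GRCh38.p14). From the wider list, genes called with at least 1 FPKM in the higher group were named, with up to 3 of the most abundant genes per role. CD40, TLR3, IL15 and CX3CL1 fall outside this rule and were picked once their values had been seen. The members and lists were chosen with earlier results of these data known. Python 3.11.15, numpy 2.4.6, pandas 2.3.3 and matplotlib 3.10.9 were used. Alternatives were other pseudocounts, scalings, filters and folds.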

Additional observations from a re-analysis of the deposited data

How the results depend on the processing

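No paired analysis was possible because each group is represented by a single FPKM per gene, and for the same reason no library could be left out. The members called higher, TRAF1 and NFKBIE, numbered 2 under each pseudocount, scaling and filter and at a difference of 25%. At a fold of 2 there was 1, TRAF1. No member was called lower in any alternative. The median of the members stayed between 0.17 and 0.24. For a median or a single value, a move of up to 0.1 on the log2 scale was taken as none, since no replicate spread is known. The log2 fold change of NFKB2 ran from -0.011 to 0.0072 over pseudocounts, scalings and filters, and relative to its neighbours it was 0.32. Of the wider list, 4 genes were called higher when an average of 1 FPKM was required, since fewer weak genes were tested, and 4 with a pseudocount of 1. At a difference of 25% there were 15 higher and 4 lower, and at a fold of 2 there were 3 higher. Over all genes, 276 were higher and 179 lower. These were 946 and 829 at a difference of 25%, and 75 and 30 at a fold of 2. The lower genes were 289 with a pseudocount of 0.1 and 329 with none, which is the effect of the pseudocount on weak genes.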

Other observations

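The NF-κB receptors CD40 and TLR3 differed by less than 1.5-fold but stood at the edges of their group. They are named here after their values were seen. CD40, a TNF family receptor that recruits TRAF proteins, had an FPKM of 23.7 in TPC1-Vector cells against 34.8 in TPC1-C1orf106 cells, a log2 fold change of 0.55. It lies on chromosome 20, where 59 of its 67 neighbours within 5 Mb were also higher, with a median of 0.33. TLR3, the receptor for double-stranded RNA, was at 4.28 and 2.88 FPKM, a log2 fold change of -0.50, beside a median of -0.048 over 20 neighbours on chromosome 4. PLAU, not a receptor but a target given above, was at 288 and 218 FPKM, a log2 fold change of -0.40. Of its 63 neighbours on chromosome 10, 59 were lower, with a median of -0.31. The part of these regional differences in the values was not tested.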
